A study of Mus musculus with 4 samples.

Results

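The chromatin and DNA methylation regulators described here were the genes whose symbols begin with the usual family names (Kmt, Kdm, Setd, Dnmt, Chd, Smarc, Arid, Hdac, Ncor, Kat, Ino80, Med and the like), and 37 of the 1175 genes of the deposited table matched. By symbol they were divided into 13 genes of histone or DNA methylation, 7 of histone acetylation, 11 remodeller genes and 6 others, of which 5 encode Mediator subunits. Bulk RNA was sequenced from bones of 13-week-old wild-type C57BL/6J mice after the marrow had been flushed. Exercised mice ran on a treadmill for 5 weeks from 8 weeks of age, and sedentary mice of the same genotype and age did not run. Each group had 2 libraries, and the labels do not say whether these came from separate animals, so a p-value here measures no more than the difference between libraries, which may be technical in origin.

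Chromatin regulators are the proteins that write, read, erase and move the chemical marks and nucleosomes that package DNA. Methyltransferases and demethylases add and remove methyl groups on histones or on DNA, acetylases and deacetylases do the same with acetyl groups on histones, and remodellers use ATP to slide, evict or exchange nucleosomes. In bone, enzymes of all these kinds are known to take part when skeletal progenitors choose between the osteoblast, chondrocyte and fat cell lineages, and the same enzymes act in the blood cells that fill the marrow spaces.

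In every listed gene the mean count of the exercise libraries exceeded that of the sedentary libraries, by at least 2.48 times, so a higher count is shared by all listed genes and is no finding about the members. Column totals ranged between 1160883 and 2680636 counts in the exercise libraries and between 516963 and 594856 in the sedentary libraries. These are totals of the listed genes and true depth is unknown. Each gene is therefore given as its share of the listed counts, in counts per 1000000, and a log2 share ratio compares exercise with sedentary bone. The study's thresholds were an unadjusted p under 0.05 with an absolute log2 ratio over 0.25, applied here to edgeR's quasi-likelihood test. Of the genes that mark bone cells, 0 of 8 osteoblast and matrix markers, 0 of 6 chondrocyte markers and 1 of 6 osteocyte markers (Sost) were among the genes analysed here, so the labelled tissue was checked by Sost alone. Blood cell markers were present as 4 of 10 for B lymphocytes, 3 of 10 for erythroid cells, 3 of 10 for megakaryocytes and 2 of 10 for granulocytes. In bulk bone, fewer cells of a type and less RNA per cell cannot be told apart.

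The families were listed unevenly. Of 192 protein-coding genes in the GENCODE M21 annotation (GRCm38) that match the symbol rule, 37 were listed (19.3%), against 989 of all 21910 protein-coding genes (4.51%). All 5 Kmt2 genes were listed, the family of the large MLL-type methyltransferases of lysine 4 on histone H3, in which Kmt2e has no known enzyme activity. In contrast, 3 of 18 Kdm genes, 3 of 10 Chd genes, 5 of 30 Med genes, 1 of 11 Hdac genes and 1 of 13 Smarc genes were listed, while 0 of 8 Brd, 0 of 3 Tet and 0 of 3 Nsd genes were. The rule that chose the listed genes is not given in the sources used here, so this is a description of the table and no test of enrichment. The members were also long and well counted. Their summed exon length had a median of 10.9 kb, against 5.87 kb over the 1162 listed genes with a length, and their mean count had a median of 918.5, against 566 over all listed genes.

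Several of the encoded proteins read CpG dinucleotides directly. KDM2B, KMT2A, KMT2B and DNMT1 carry a CXXC zinc finger, which binds CpG that is not methylated. Promoters of the members were themselves rich in CpG. RefSeq (GRCm38.p6) promoter sequences were matched by symbol for 28 of the 37 members, as windows of 300 bases with 250 of them before the start, and where several starts were listed the one with most CpG was taken for every gene. The letters CG, which read the same on both strands, occurred a median of 34.5 times in a member's window, against 23 in the 815 matched listed genes and 8 in all 27025 genes of the sequence table. At least 15 occurred in 89.3% of member windows, 72.9% of listed windows and 37.1% of all windows, the number 15 being an arbitrary cut-off. The member with fewest was Setd5 with 1. The 250 bases before the start are shown for the called genes Kdm2b and Spen, for Kmt2a, and for Kdm4a, the member with the lowest log2 share ratio, so that the CpG spacing can be seen, with each CG in capitals and written 5′ to 3′ on the gene's strand. The Kdm2b window belongs to a start inside the gene. Match counts describe the sequence and say nothing of binding or methylation in these bones.
Kdm2b (chr5:122900351-122900600, minus strand): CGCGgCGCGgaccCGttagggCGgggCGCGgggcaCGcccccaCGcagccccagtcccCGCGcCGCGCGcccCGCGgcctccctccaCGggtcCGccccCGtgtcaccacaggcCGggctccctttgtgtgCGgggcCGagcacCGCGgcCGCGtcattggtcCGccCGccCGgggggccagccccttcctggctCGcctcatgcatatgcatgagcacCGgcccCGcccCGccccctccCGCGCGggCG
Spen (chr4:141538598-141538847, minus strand): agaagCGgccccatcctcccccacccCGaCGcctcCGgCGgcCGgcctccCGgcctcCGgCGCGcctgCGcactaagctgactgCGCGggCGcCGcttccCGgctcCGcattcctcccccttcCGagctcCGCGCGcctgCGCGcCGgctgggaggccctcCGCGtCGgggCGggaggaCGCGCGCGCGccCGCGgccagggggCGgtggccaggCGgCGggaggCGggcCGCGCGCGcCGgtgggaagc
Kmt2a (chr9:44881290-44881539, minus strand): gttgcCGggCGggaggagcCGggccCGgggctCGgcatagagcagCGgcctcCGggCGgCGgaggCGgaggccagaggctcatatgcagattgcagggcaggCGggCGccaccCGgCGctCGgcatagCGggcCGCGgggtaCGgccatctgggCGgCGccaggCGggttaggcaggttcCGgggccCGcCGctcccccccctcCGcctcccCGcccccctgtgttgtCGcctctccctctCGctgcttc
Kdm4a (chr4:118180044-118180293, minus strand): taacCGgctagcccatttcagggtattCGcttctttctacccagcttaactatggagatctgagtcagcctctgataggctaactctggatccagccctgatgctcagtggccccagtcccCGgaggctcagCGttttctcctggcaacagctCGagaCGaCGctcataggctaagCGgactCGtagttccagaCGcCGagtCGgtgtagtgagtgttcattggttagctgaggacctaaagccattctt
These upstream windows held 38, 44, 29 and 12 CG for Kdm2b, Spen, Kmt2a and Kdm4a. The Kdm4a window was the poorest of the 4. Across the 28 matched members, however, the Spearman correlation of CpG density with the log2 share ratio was 0.24. The Pearson correlation was 0.19 on log2 density. These points share the same 4 libraries.

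In all, 3 chromatin genes had a higher share in exercised bone at the study's thresholds, Setd1b, Kdm2b and Spen, and none of the 37 passed an adjusted p of 0.05. Thus 3 of 37 members (8.11%) were called higher, against 11.3% of all listed genes and 10.3% of those averaging 100 counts or more, and 0 were called lower, against 0.0851%. A share of calls below the background is no result about chromatin genes as a group. Every listed gene had a mean exercise count at least 2.48 times the sedentary mean. With column totals the lowest log2 share ratio of any listed gene was -0.38. This left little room for a lower call, which needs an absolute log2 ratio over 0.25. The 0 lower calls are therefore no finding about the members. The 3 higher calls come from the same listed genes, all with higher mean counts in exercise. Their p-values take no account of how these genes were chosen, so the calls alone are no support for a change. With an adjusted p under 0.05 the background was 0.340% of listed genes. No member passed adjustment with the DESeq2 Wald test or limma-voom either, and 3 members had an unadjusted p under 0.05 in edgeR.

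Setd1b, the catalytic subunit of a complex that methylates lysine 4 of histone H3 (ENSMUSG00000038384; chromosome 5, 123142193 to 123168629 in GENCODE M21, GRCm38), took 409 and 570 counts per 1000000 in the exercise libraries (replicate 1 first), against 257 and 205 in sedentary replicates 1 and 2. Both exercise libraries lay above both sedentary ones. The log2 share ratio was 1.08 ± 0.24 (SE, edgeR unadjusted p = 0.00476, adjusted p = 0.240). Among the members Setd1b alone was called in each of the 12 settings in which it was tested, with log2 share ratios between 0.82 and 1.30.

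Kdm2b encodes a demethylase of lysine 36 on histone H3 that also brings a Polycomb complex to CpG-rich promoters (chromosome 5, 122870665 to 122989823). Its share was 340 and 284 counts per 1000000 in the exercise libraries, against 154 and 149 in the sedentary libraries. It was the only called member with its higher value in exercise replicate 1. The log2 share ratio was 1.04 ± 0.22 (SE, edgeR unadjusted p = 0.00416, adjusted p = 0.240), and the call was lost without sedentary replicate 2 (unadjusted p = 0.0563). Kdm2b and Setd1b are neighbours on chromosome 5, 152 kb apart with 4 protein-coding genes between them. Of these only Tmem120b was listed, with a log2 share ratio of 0.11 ± 0.21, which did not pass. Both Kdm2b and Setd1b have fractional counts, and both overlap other annotated genes (Rnf34 on the other strand of Kdm2b, for example), so that reads may have been divided between genes, and whether counting used strand is not given.

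Spen, a large RNA-binding corepressor that brings deacetylase complexes to Notch targets and to the silent X chromosome (chromosome 4, 141467890 to 141538597), took 374 and 720 counts per 1000000 in the exercise libraries, against 293 and 277 in the sedentary libraries. Both exercise libraries lay above both sedentary ones, and the larger part of the difference came from replicate 2. The log2 share ratio was 0.95 ± 0.33 (SE, edgeR unadjusted p = 0.0314, adjusted p = 0.365). With exercise replicate 1 left out the ratio was 1.34, with replicate 2 left out 0.39, and the call was lost without sedentary replicate 1 (unadjusted p = 0.0806), without sedentary replicate 2 (unadjusted p = 0.101) and with limma-voom (unadjusted p = 0.126). Spen has whole counts in all 4 libraries, but it too overlaps another annotated gene, Zbtb17 on the other strand.

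**Figure D1:**
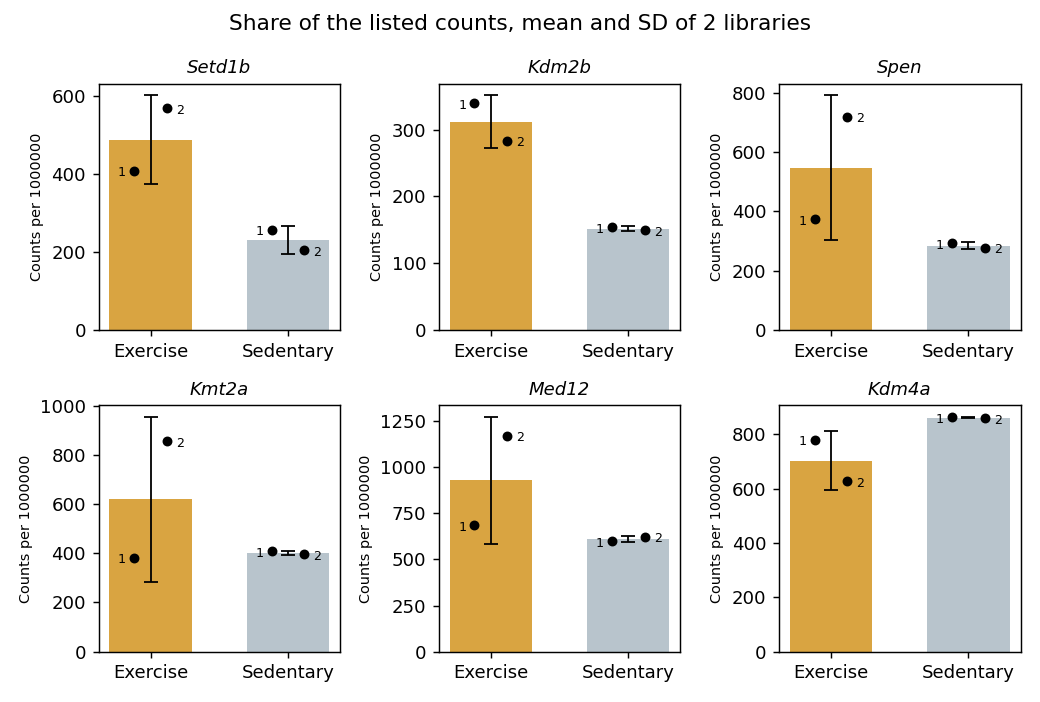
Share of the listed counts (counts per 1000000, linear axes from 0) of 6 members in exercised and sedentary bone, with bars for the mean, error bars for the SD and points for replicates 1 and 2 of each group. For Setd1b, Kdm2b, Spen and Med12 both exercise points lie above both sedentary points, for Kmt2a only exercise replicate 2 does (856 counts per 1000000), and for Kdm4a both lie below.

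Around these, 2 more members had both exercise shares above both sedentary ones. Med12, a subunit of the Mediator kinase module, had shares of 685 and 1170 counts per 1000000 in exercise, against 598 and 621 in sedentary bone. Its log2 share ratio of 0.61 ± 0.27 did not pass (edgeR unadjusted p = 0.0716). It passed at 0.94 with exercise replicate 1 left out and stood at 0.17 with replicate 2 left out. Kmt2d, a methyltransferase of enhancers, had 1347 and 1431 against 1283 and 1270 counts per 1000000, a log2 share ratio of 0.12 ± 0.13. In all, 5 of 37 members (13.5%) lay above in both exercise libraries, against 36.0% of all listed genes, and 8 of 37 (21.6%) lay below, against 16.1%. The 1005 genes averaging 100 counts or more, to which all 37 members belong, gave backgrounds of 27.7% above and 18.8% below.

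The 8 members with lower shares in both exercise libraries came from all subclasses, and none passed the thresholds. Kdm4a, a demethylase of lysines 9 and 36 on histone H3, had the lowest log2 share ratio of all members, -0.29 ± 0.17, with 779 and 626 counts per 1000000 in exercise, against 862 and 859 in sedentary bone. Brpf3, a scaffold of the KAT7 acetylase complex, had 2043 and 1941 counts per 1000000 in exercise, against 2343 and 2300 in sedentary bone (log2 -0.22 ± 0.13). Dnmt1, the maintenance DNA methyltransferase that copies methylation to the new strand after replication, had 1982 and 2373 in exercise, against 2550 and 2526 in sedentary bone (log2 -0.22 ± 0.15). The other 5 were the remodeller genes Ep400 (log2 -0.22), Ino80d (-0.21) and Smarcc2 (-0.08), the Mediator gene Med15 (-0.19, with replicate 1 nearly level with sedentary bone) and the methyltransferase gene Kmt2b (-0.03). Their counts were nevertheless higher in exercise, for example 2301 and 6362 for Dnmt1, against 1517 and 1306. The lowest log2 share ratio of any listed gene was -0.38, close to the threshold of an absolute log2 ratio over 0.25. With so little room for a lower call, that none of the 8 passed is no finding about them.

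**Figure D2:**
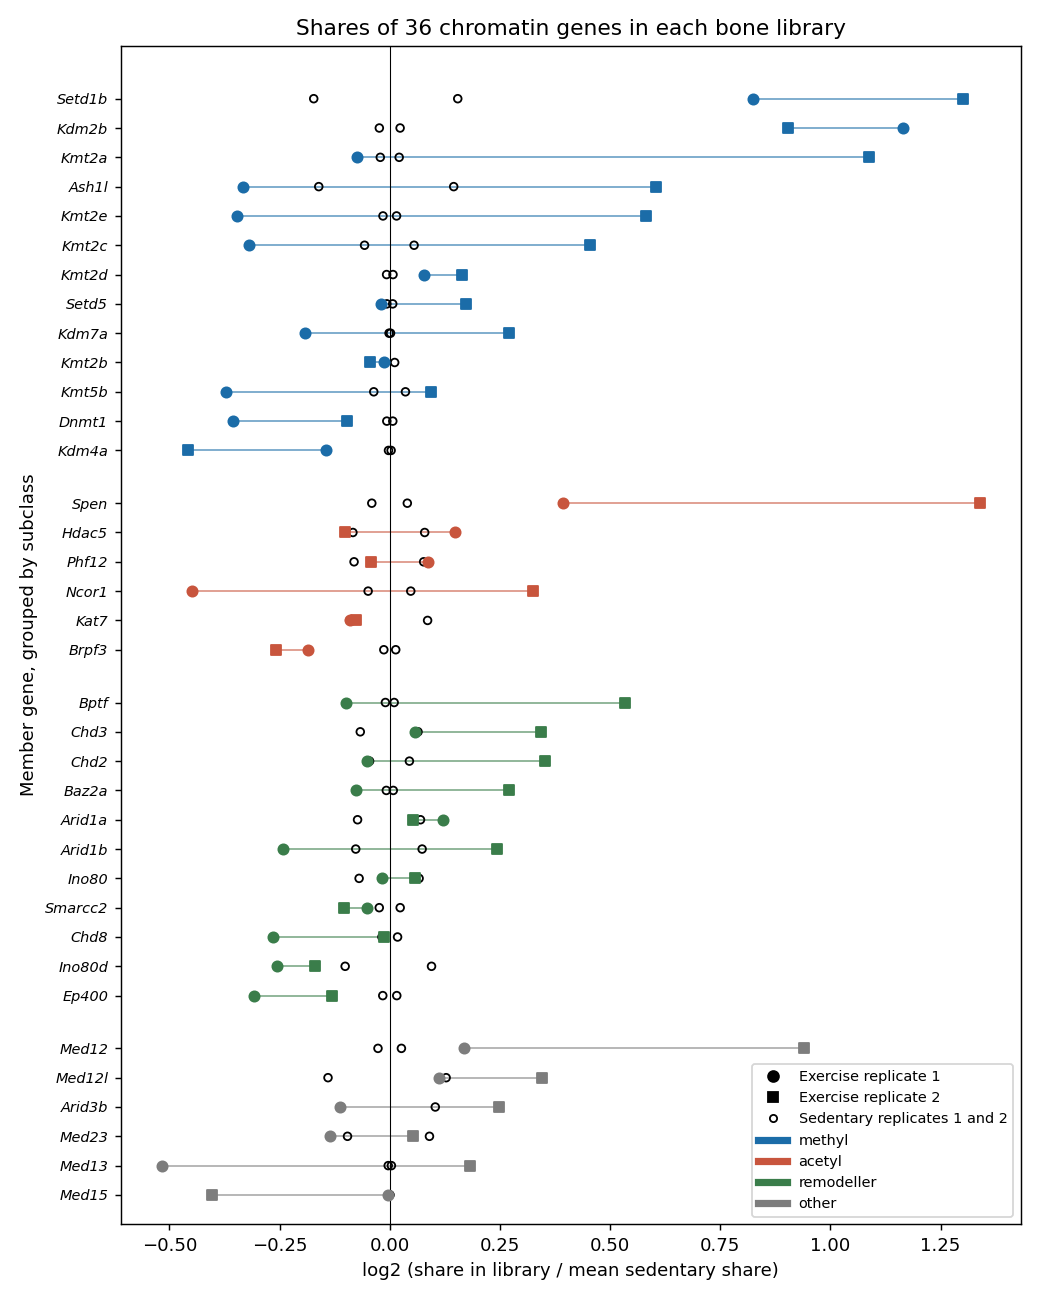
Log2 of the share in each library over the mean sedentary share for 36 of the 37 members, grouped by subclass and ordered by log2 share ratio, with filled circles for exercise replicate 1, squares for exercise replicate 2, a line joining them, and open circles for the 2 sedentary libraries. The sedentary points stay close to 0, while the exercise points of many genes lie on either side of it, from -0.52 for Med13 in replicate 1 to 1.34 for Spen in replicate 2.

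The exercise libraries disagreed on the direction of many members. The share was below the sedentary mean in replicate 1 and above it in replicate 2 in 17 of 37 members (45.9%), against 289 of 1175 listed genes (24.6%) and 24.8% of the genes averaging 100 counts or more. The opposite pattern was seen in 2 members, Hdac5 and Phf12, and the direction was shared in 8 members that were higher and 10 that were lower in both. Over the members, the log2 ratio of replicate 2 to replicate 1 had an SD of 0.39 in exercise and 0.13 in sedentary bone. Over the genes averaging 100 counts or more the SDs were 0.70 and 0.27, so these ratios spread less among the members. An SD leaves out a shift common to the genes. The median log2 ratio in exercise was 0.26 over the members, against 0.11 over the genes averaging 100 counts or more. Kmt2a, Ash1l, Kmt2e, Kmt2c, Ncor1 and Med13 showed the widest split among the 17. Med13, the subunit that ties the kinase module to core Mediator, had shares of 687 and 1116 counts per 1000000 in exercise, against 982 and 987 in the sedentary libraries. Ncor1, which encodes the scaffold of a deacetylase complex, had 1240 and 2120, against 1750 and 1636. For both genes the sedentary values lay between the exercise values, and the log2 share ratios of -0.12 ± 0.25 and -0.01 ± 0.27 average over opposite directions.

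Gene length moved with the ratio of the exercise libraries. Across the 37 members the log2 share of exercise replicate 2 over replicate 1 correlated with summed exon length (Spearman 0.42, Pearson 0.43 on log2 length), while over all 1162 listed genes with a length the values were 0.13 and 0.08, and over the 996 of them averaging 100 counts or more, the set that holds all members, 0.31 and 0.29. Replicate 2 had the larger share in 16 of the 19 longer members (10.9 to 20.3 kb) and 12 of the 18 shorter ones (4.91 to 10.8 kb), and in 28 of 37 in all (75.7%), against 62.6% of all listed genes. The split in direction itself was seen in 9 of the 19 longer and 8 of the 18 shorter members. These points share the same libraries and genes are not replicates, so the values are a description. Replicate 2 also had the larger column total, and the summed share of the 4 listed B lymphocyte markers was 42592 in replicate 1 and 11405 in replicate 2, against 22074 and 22288 counts per 1000000 in sedentary bone. Nearly all of this sum was Ighm, the immunoglobulin heavy chain gene, with 41148 and 9160, against 20194 and 20392. The other 3 markers, Pax5, Cd22 and Rag1, had the larger share in replicate 2 (620 and 789 for Pax5, 489 and 567 for Cd22, 334 and 889 for Rag1). The part of length, depth or Ighm RNA in the split or in the ratio was not tested.

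**Figure D3:**
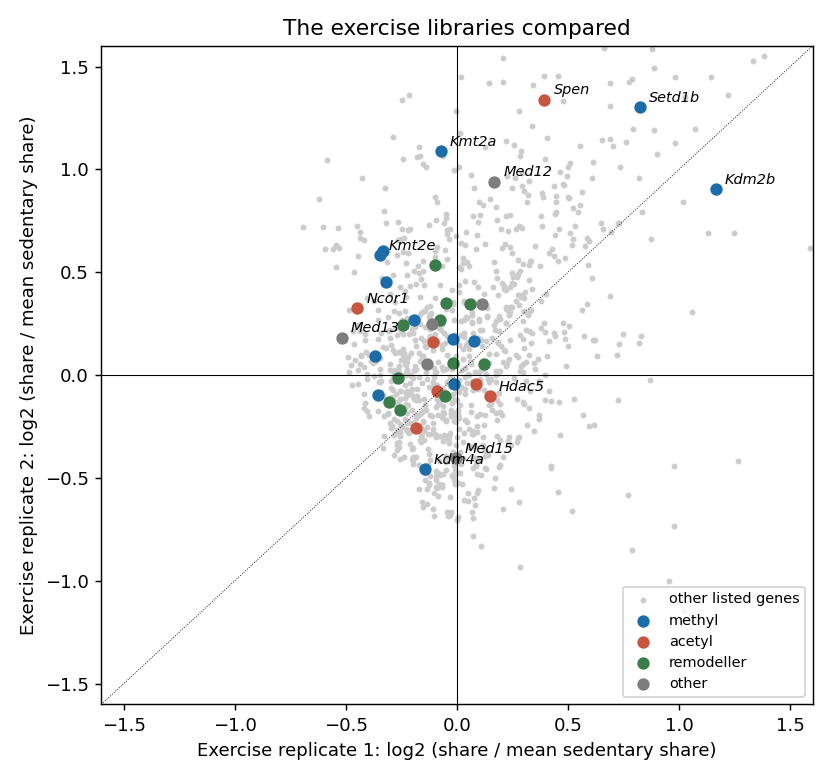
Log2 of the share over the mean sedentary share in exercise replicate 1 (horizontal) and exercise replicate 2 (vertical), with members coloured by subclass, other listed genes in grey (935 of 1138 drawn, the rest lying outside the axes or having no value) and the dotted line marking equal values. The upper left field holds 17 members, and Setd1b (0.82 and 1.30), Kdm2b (1.16 and 0.90) and Spen (0.39 and 1.34) stand apart to the upper right.

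**Figure D4:**
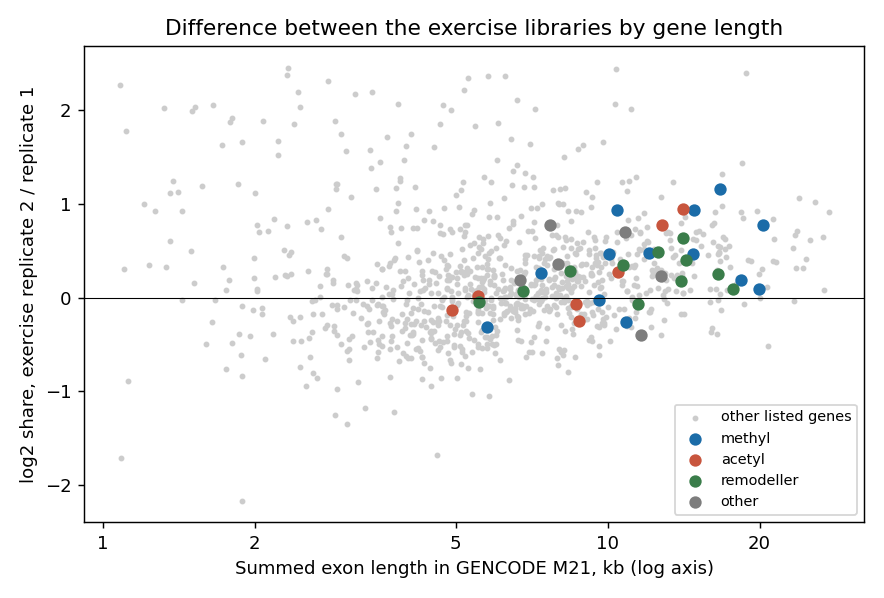
Log2 ratio of the share in exercise replicate 2 over replicate 1 against summed exon length in kb (log axis), with members coloured by subclass and other listed genes in grey (1017 of 1138 drawn, the rest lying outside the axes or having no value). Members are long, from 4.91 to 20.3 kb, and 28 of 37 lie above 0.

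The medians of the subclasses differed by less than the methylation median moved between exercise libraries. The median log2 share ratio was 0.12 over the 13 methylation genes, 0.02 over the 7 acetylation genes, 0.02 over the 11 remodeller genes and 0.02 over the 6 others, against 0.14 over all listed genes and 0.06 over those averaging 100 counts or more. The order of the subclasses changed with the libraries used, and the methylation median was 0.27 with exercise replicate 1 left out and, as the lowest of the 4, -0.14 with exercise replicate 2 left out. The summed share of the methylation genes was 10242 and 13162 counts per 1000000 in exercise, against 11238 and 11158 in sedentary bone. That of the acetylation genes was 6320 and 7343, against 7162 and 6677. That of the remodeller genes was 9112 and 10481, against 9690 and 9875. In each subclass the exercise values lay on both sides of the sedentary ones. The ratio of one subclass to another within a library removes the common scaling, and 3 pairs were compared. Methylation over acetylation genes differed by 0.07 on the log2 scale between exercise and sedentary bone (exact permutation test, two-sided, p = 0.667), methylation over remodeller genes by 0.05 (exact p = 1) and acetylation over remodeller genes by -0.02 (exact p = 1), each with an adjusted p of 1. With 2 libraries per group the smallest p this test can give is 0.333, so a difference between subclasses could not have been called.

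**Figure D5:**
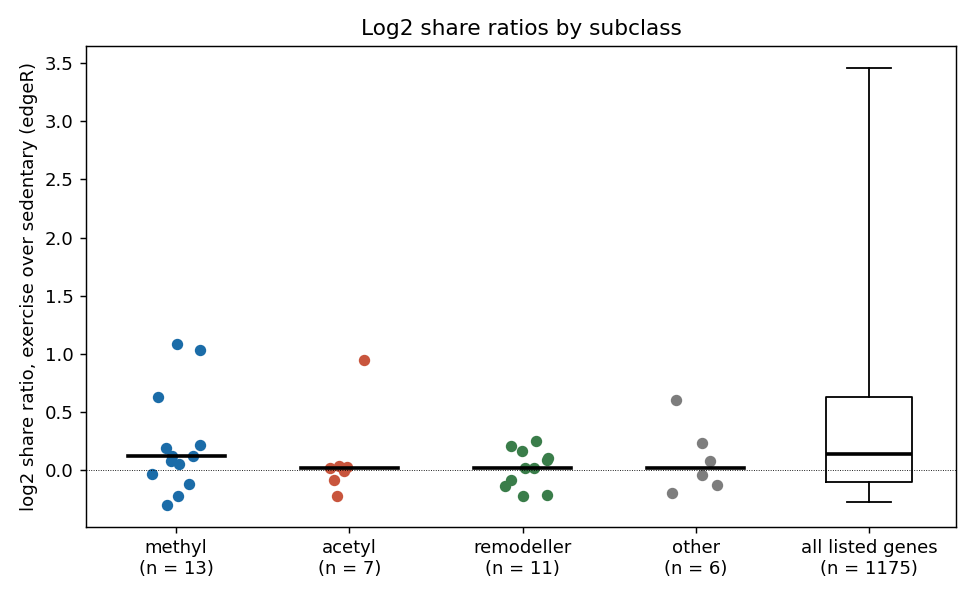
Log2 share ratios of exercise over sedentary bone for each member by subclass (points, with a bar at the median) beside a box of all 1175 listed genes (median, quartiles, whiskers at the 5th and 95th percentiles). The medians of 0.12, 0.02, 0.02 and 0.02 lie below the median of 0.14 of all listed genes, and 2 methylation genes and 1 acetylation gene stand apart near 1.

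Within the methylation genes, the 6 genes of the lysine 4 methyltransferase family had log2 share ratios between -0.03 and 1.08. The active enzymes of this family lay down the mark of active promoters and enhancers. After Setd1b, Kmt2a, the founding MLL gene, had 382 and 856 counts per 1000000 in exercise, against 409 and 397 in sedentary bone, so that replicate 1 was below and replicate 2 far above. Its log2 share ratio of 0.63 ± 0.38 did not pass (unadjusted p = 0.156), and the ratio became 1.09 with exercise replicate 1 left out and -0.07 with replicate 2 left out. Kmt2e, whose SET domain has no known enzyme activity, reached a log2 share ratio of 0.19 ± 0.31, and the enhancer methyltransferase Kmt2c 0.12 ± 0.27, both with the same split of the exercise pair. Kmt2b, the closest paralog of Kmt2a, had 894 and 875 counts per 1000000 in exercise, against 909 and 896 in sedentary bone (log2 -0.03 ± 0.13), with all 4 values close together. The 5 Kmt2 genes summed to 3767 and 5223 counts per 1000000 in exercise, against 4077 and 3966. Of the partners of these enzymes on a further list of chromatin genes, Cxxc1, the CpG-binding subunit of the Setd1 complexes, was called higher, with 541 and 613 in exercise, against 420 and 393 (log2 0.51 ± 0.16, edgeR unadjusted p = 0.0222, adjusted p = 0.360), a call lost with the DESeq2 Wald test (unadjusted p = 0.149) and without sedentary replicate 1 (unadjusted p = 0.137) or 2 (unadjusted p = 0.202). Menin (Men1) and Hcfc1 had log2 share ratios of -0.09 ± 0.20 and -0.01 ± 0.14.

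Ash1l, Setd5, Kdm7a and Kmt5b had log2 share ratios smaller than their SE. Ash1l, which methylates lysine 36 of histone H3, had 340 and 652 counts per 1000000 in exercise, against 383 and 474 in sedentary bone (log2 0.22 ± 0.33). Setd5, a SET domain protein, had a log2 share ratio of 0.08 ± 0.15, Kdm7a, which removes repressive methyl marks from histone H3, of 0.06 ± 0.19, and Kmt5b, which methylates lysine 20 of histone H4, of -0.12 ± 0.20. Kdm7a was among the best counted members, with 1405 and 1936 counts per 1000000 in exercise, against 1604 and 1607. The 3 demethylase genes thus had log2 share ratios of 1.04, 0.06 and -0.29, and of these Kdm2b alone was called.

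Among the acetylation genes Spen alone was called. The deacetylase Hdac5, of the class that shuttles between nucleus and cytoplasm, had 772 and 649 counts per 1000000 in exercise, against 736 and 658 in sedentary bone (log2 0.03 ± 0.17). Phf12, a subunit of a Sin3 deacetylase complex, had a log2 share ratio of 0.02 ± 0.15. The acetylase gene Kat7 had 714 and 721 in exercise, against 807 and 714 (log2 -0.08 ± 0.15). From the further list, the corepressor subunits Gps2 and Tbl1x, which sit in the same complex as NCOR1, had 873 and 619 against 876 and 890, and 440 and 485 against 546 and 526 (log2 -0.25 ± 0.20 and -0.21 ± 0.15). Both had lower shares in both exercise libraries, though Gps2 was nearly level in replicate 1, and neither passed.

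No remodeller gene was called. Bptf, the largest subunit of the NURF complex, had the highest log2 share ratio of the 11, 0.26 ± 0.24, with 603 and 934 counts per 1000000 in exercise, against 641 and 650. Chd3, of the NuRD complex, and Chd2 followed with 0.21 ± 0.18 and 0.17 ± 0.19. Baz2a, which takes part in silencing ribosomal RNA genes, had 0.11 ± 0.17. The SWI/SNF genes Arid1a, Arid1b and Smarcc2 lay at 0.09 ± 0.14, 0.02 ± 0.21 and -0.08 ± 0.13, and Arid1a was the best counted remodeller gene, with 1519 and 1449 counts per 1000000 in exercise, against 1328 and 1466. The ATPase gene Ino80 had 0.02 ± 0.17 and Chd8, a remodeller linked to Wnt target genes, -0.13 ± 0.15. Ep400, the ATPase of the TIP60 complex, had 1094 and 1236 in exercise, against 1368 and 1339 (log2 -0.22 ± 0.14), and Ino80d had 674 and 716, against 750 and 859 (log2 -0.21 ± 0.15). The related ATPase Srcap, from the further list, was called higher, with 281 and 386, against 158 and 190 (log2 0.94 ± 0.25, edgeR unadjusted p = 0.0107, adjusted p = 0.319), and the call was lost without sedentary replicate 1 (unadjusted p = 0.0972).

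Mediator links enhancer-bound factors to RNA polymerase II. Apart from Med12 and Med13, its listed subunits were Med12l, the paralog of Med12 (log2 0.24 ± 0.34), and the tail subunits Med23 (-0.04 ± 0.18) and Med15 (-0.19 ± 0.19). Med15 had 600 and 455 counts per 1000000 in exercise, against 602 and 602 in sedentary bone, so that replicate 1 was nearly level and replicate 2 clearly lower. Arid3b, which encodes a DNA-binding protein, had a log2 share ratio of 0.08 ± 0.24. Med12l had the fewest counts of all members, 140 and 380 in exercise, against 60.2 and 63.0.

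Of a further 167 chromatin genes outside the symbol rule, 29 were listed, and 5 of these (17.2%) were called higher and 0 lower, against backgrounds of 11.3% and 0.0851%. Besides Srcap and Cxxc1 these were Cxxc5, the arginine methyltransferase gene Carm1 and Supt20, a subunit of the SAGA acetylase complex. Carm1 had 447 and 510 counts per 1000000 in exercise, against 298 and 320 (log2 0.64 ± 0.17, unadjusted p = 0.0104, adjusted p = 0.319), and Supt20 had 666 and 845, against 508 and 515 (log2 0.57 ± 0.18, unadjusted p = 0.0212). Cxxc5, which encodes a CXXC protein that restrains Wnt signalling, had 36.7 and 115 counts in exercise, against 1.01 and 0 in sedentary bone. Its log2 share ratio was 5.25 ± 1.37 (SE, edgeR unadjusted p = 0.0101, adjusted p = 0.319). The pooled share ratio was 44.0 (95% exact counting interval 7.78 to 1749), an interval that leaves out variation between libraries. With so few sedentary counts Cxxc5 was in the table only through its exercise counts, so its call is no support for a change. None of the 5 passed adjustment, and the higher calls and the 0 lower calls carry the limits given above for the members. Of these 5 calls, Srcap and Cxxc5 alone were kept with the DESeq2 Wald test, Cxxc5 alone without sedentary replicate 1 and Srcap alone without sedentary replicate 2. At the lower end, the histone methyltransferase gene Prdm2 had 671 and 735 counts per 1000000, against 783 and 832 (log2 -0.20 ± 0.15), below Gps2 and Tbl1x in size. The median log2 share ratio of the 29 genes was 0.04.

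The count of members with a higher share depended on the scaling. With column totals 23 of 37 members (62.2%) had a log2 share ratio over 0, against 64.1% of all listed genes and 58.0% of those averaging 100 counts or more. With DESeq2 size factors computed over the listed genes 13 did, against 52.8%, and with TMM factors 14 did, against 53.4%, while the median of all genes stood at 0.14, 0.04 and 0.04 on the 3 scales. The 10 members that turned with DESeq2 size factors had log2 share ratios between 0.02 and 0.11 with column totals. Setd1b, Kdm2b and Spen were called on all 3 scales, where 11.4%, 12.1% and 11.5% of listed genes were called in either direction. The DESeq2 Wald test called the same 3 (13.3% of listed genes), limma-voom called Setd1b and Kdm2b (5.79%), and of the 19 members with whole counts Spen alone was called (7.55% of whole-count genes). Without sedentary replicate 1, Setd1b and Kdm2b were called (47 of all listed genes), and without sedentary replicate 2 Setd1b alone was (44 of all listed genes). Without exercise replicate 1, 14 members were called higher and 3 lower, against 39.7% and 15.6% of listed genes, and without exercise replicate 2, 3 were called higher and 10 lower, against 20.3% and 10.4%. Such fits take the lone exercise library to vary like the close sedentary pair.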

How the data were processed

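Bulk polyA RNA from marrow-flushed bone was made into modified Smart-seq2 libraries with UMI barcodes, 2 from exercised and 2 from sedentary mice. The authors deposited 1 table of estimated counts for 1175 genes in the 4 libraries, of which 596 are whole in every column and 579 hold fractions. The submitters' processing notes name STAR, HTSeq and the mm10 build, and how the fractions arose and how the 1175 genes were chosen is not given in the sources used here.

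Counts were rounded and tested with edgeR 4.0.16 (quasi-likelihood F test, column totals as library sizes, no covariates, exercise over sedentary), with Benjamini-Hochberg adjustment over the 1175 listed genes only. Each standard error was derived from the ratio and the F statistic (absolute log2 value divided by root F). Shares are counts per 1000000 listed counts. Column totals (516963 to 2680636) hold listed genes alone, so true depth and the precision it gives are unknown. Adjusted p-values are therefore relative to a table already selected for higher counts in exercise. Alternatives were DESeq2 1.42.0 size factors and Wald test, TMM factors, limma-voom (limma 3.58.1), means of at least 20 or 100 counts, whole-count genes only, a replicate block and leaving out each library. The fit was also run on simulated data, with equal variation in both groups and no selection of genes by exercise counts. Since these bones differ in both respects, that run does not vouch for the p-values given here. Members were chosen by symbol, and 1 member, counted in the totals, is not reported here by name. Members and lists were chosen with earlier results of these data known. Of the further list, those called and the 3 lowest were named, plus the complex partners Men1 and Hcfc1, which were chosen after their values were seen.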

Additional observations from a re-analysis of the deposited data

How the results depend on the processing

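The number of members past the study's thresholds (3) was 3 with DESeq2 size factors, TMM factors and the DESeq2 Wald test, 2 with limma-voom, 4 once the replicate block was included, which added Med12 (10.2% of listed genes called), and 1 among whole-count genes only, all of it higher, since Setd1b and Kdm2b have fractional counts and were not tested there. The labels do not say whether libraries with the same replicate number form pairs. The correlation of their deviations over genes (-0.08) cannot decide it with so few libraries. Leaving out 1 library gave 1 to 17 members past the thresholds, of which 1 to 14 were higher and 0 to 10 lower, 0 to 17 past an adjusted p of 0.05, and 10 to 25 with a higher share. The highest counts of calls came without an exercise library and the lowest without a sedentary library, while the lone library is then taken to vary like the other group.

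Members with a higher share (23) numbered 13 with DESeq2 size factors, 14 with TMM factors, 13 with the Wald test and 14 of 19 among whole-count genes. The median of the acetylation genes was -0.080, -0.072, -0.080 and 0.080 under these settings in that order, and -0.093 to 0.10 with a library left out. The median of the remodeller genes was -0.086, -0.078 and -0.086 under the first 3 of them, and -0.075 to 0.10 with a library left out, where that of the 6 others was -0.08 to 0.22 and that of the methylation genes -0.14 to 0.27. The cause was not tested, beyond the lower median of all genes with DESeq2 size factors and TMM factors (0.04 on both) than with column totals (0.14).

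With DESeq2 size factors the log2 share ratio turned negative for Baz2a (-0.0028), Arid1a (-0.017), Arid3b (-0.030), Setd5 (-0.028), Kdm7a (-0.056), Hdac5 (-0.074), Arid1b (-0.090), Phf12 (-0.080) and Ino80 (-0.086). With the Wald test it did for Baz2a (-0.0027), Arid1a (-0.017), Arid3b (-0.030), Setd5 (-0.028), Kdm7a (-0.056), Hdac5 (-0.074), Arid1b (-0.090), Phf12 (-0.080) and Ino80 (-0.086). With TMM factors it did for Arid1a (-0.0091), Arid3b (-0.024), Setd5 (-0.021), Kdm7a (-0.049), Hdac5 (-0.065), Arid1b (-0.084), Phf12 (-0.072) and Ino80 (-0.078). Among whole-count genes it turned positive for Ncor1 (0.046), Kmt2b (0.025), Med23 (0.019) and Hcfc1 (0.044). With a library left out, the sign turned within these ranges: Kmt2a -0.07 to 1.09, Bptf -0.10 to 0.53, Ash1l -0.33 to 0.61, Kmt2e -0.35 to 0.58, Chd2 -0.053 to 0.35, Kmt2c -0.32 to 0.45, Baz2a -0.075 to 0.27, Arid3b -0.11 to 0.25, Setd5 -0.020 to 0.17, Kdm7a -0.19 to 0.27, Hdac5 -0.10 to 0.14, Arid1b -0.24 to 0.25, Phf12 -0.052 to 0.10, Ino80 -0.045 to 0.091, Ncor1 -0.45 to 0.32, Med23 -0.13 to 0.058, Kat7 -0.17 to 0.0081, Kmt5b -0.37 to 0.094, Med13 -0.52 to 0.18, Hcfc1 -0.087 to 0.061 and Men1 -0.24 to 0.079.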
